A study of Mus musculus with 49 samples.

Results

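A set of 9 oligodendrocyte and myelin genes was followed through every library as a measure of oligodendrocyte RNA, namely Mbp, Mobp, Mog, Mag, Cldn11, Cnp, Olig1, Olig2 and Sox10. They were taken by name and all 9 were found among the 52636 genes of the count table. The libraries came from the nucleus accumbens (NAc) of C57BL/6J mice in which D1- or D2-MSNs, the medium spiny neurons with Drd1 or Drd2 dopamine receptors, carried a label. For whole cell-FACS (8 D1 and 6 D2 libraries), a cytoplasmic fluorophore under the Drd1 or Drd2 promoter marked cells sorted from fresh tissue after papain. For nuclear-FACS (6 D1 and 5 D2), Drd1-cre or Drd2-cre mice crossed to a Thy1-loxPSTOPloxP-EGFP-F line gave GFP-labelled nuclei, sorted from frozen tissue after a sucrose gradient. For RiboTag (6 D1 and 6 D2 labelled male, 5 D1 and 5 D2 labelled female), ribosomes with HA-tagged Rpl22 were immunoprecipitated from fresh tissue of Drd1-cre or Drd2-cre mice. All whole cell and nuclear libraries were labelled male. No group was labelled for oligodendrocytes. The study states that each sample was a unique mouse. The label of each method depends on a Drd1 or Drd2 driven transgene, and the nuclear and ribosomal labels also on a second, Cre-dependent allele.

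Oligodendrocytes wrap axons in myelin, a stack of their own membrane. Mbp and Mobp encode basic proteins that hold the cytoplasmic faces of that stack together, Cldn11 a claudin of the tight junctions within it, Mag and Mog surface glycoproteins of its inner and outermost layers, and Cnp an enzyme that keeps cytoplasmic channels open. Olig1, Olig2 and Sox10 are transcription factors of the oligodendrocyte lineage, and Sox10 drives many myelin genes. The structural myelin genes are commonly used to look for RNA of other cells in a neuronal preparation. Whether neurons add to their counts here was not tested. In bulk libraries, fewer cells of a type and less RNA per cell cannot be told apart.

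On GRCm38 the members lie, as GENCODE M21 has them, with Mbp (ENSMUSG00000041607) at chr18:82475146-82585637, Mobp (ENSMUSG00000032517) at chr9:120149707-120181484, Mog (ENSMUSG00000076439) at chr17:37010743-37023398, Mag (ENSMUSG00000036634) at chr7:30899176-30914873. The others are Cldn11 (ENSMUSG00000037625) at chr3:31149920-31164324, Olig1 (ENSMUSG00000046160) at chr16:91269772-91271933, Olig2 (ENSMUSG00000039830) at chr16:91225457-91228677 and Sox10 (ENSMUSG00000033006) at chr15:79154908-79165240, and Cnp (ENSMUSG00000006782) is placed with its overlapping neighbour further on. Introns make up most of these spans except for Olig1 and Olig2, and all bases of a span were counted.

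Total counts ran from 3701255 to 68777008 over the 47 libraries, so that a floor of 3 counts corresponded to 0.0436 to 0.811 CPM (the count scaled to a common library total). The 10 highest genes held 84.9 to 88.3% of the counts of RiboTag libraries, 5.23 to 66.9% in nuclear and 2.70 to 54.5% in whole cell libraries. Of 4 D1 and 4 D2 marker genes, all 8 were called in the direction of their label between whole cell libraries and 7 of 8 between RiboTag male libraries, against 1 of 3 tested D1 markers and 1 of 4 D2 markers between nuclear libraries, where another D2 marker (Penk) was called in the other direction. Libraries are named by the number of their count column. For whole cell and nuclear D2 and female RiboTag libraries, that number is not tied to a sample title. Whole cell D2 library 1 stood apart, since 6 of the 9 members were at 0 in it. Levels are given as scaled CPM, in which each library's total was multiplied by a TMM factor (edgeR's trimmed mean scaling over all 47 libraries), and as ratios within a library, which need no scaling. Means are followed by their SD and the number of libraries.

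The promoters of the 3 members that differed most between whole cell and nuclear libraries are printed here. Each runs from 250 bases before to 50 after a RefSeq start in GRCm38.p6, and 6 of the 9 members had an entry in the table used. Of 3 entries for Mag, the one nearest the annotated gene start is shown. Capitals mark the SOX core letters ACAAAG and ACAATG on either strand. The Mobp promoter (chr9:120149492-120149791, + strand) lies at the 5′ end of the gene, the Mag promoter (chr7:30914814-30915113, - strand) and the Cldn11 promoter (chr3:31149670-31149969, + strand) likewise.
Mobp: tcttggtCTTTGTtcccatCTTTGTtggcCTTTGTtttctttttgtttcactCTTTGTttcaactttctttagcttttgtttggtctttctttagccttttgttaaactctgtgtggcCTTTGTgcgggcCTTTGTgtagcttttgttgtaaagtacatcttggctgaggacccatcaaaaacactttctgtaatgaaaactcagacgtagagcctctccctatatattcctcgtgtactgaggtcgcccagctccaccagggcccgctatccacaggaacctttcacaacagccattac
Mag: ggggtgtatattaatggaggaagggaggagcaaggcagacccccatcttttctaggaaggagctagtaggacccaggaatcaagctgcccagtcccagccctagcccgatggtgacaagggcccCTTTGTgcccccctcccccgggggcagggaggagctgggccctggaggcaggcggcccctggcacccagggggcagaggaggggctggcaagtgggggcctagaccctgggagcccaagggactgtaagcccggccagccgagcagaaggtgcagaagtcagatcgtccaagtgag
Cldn11: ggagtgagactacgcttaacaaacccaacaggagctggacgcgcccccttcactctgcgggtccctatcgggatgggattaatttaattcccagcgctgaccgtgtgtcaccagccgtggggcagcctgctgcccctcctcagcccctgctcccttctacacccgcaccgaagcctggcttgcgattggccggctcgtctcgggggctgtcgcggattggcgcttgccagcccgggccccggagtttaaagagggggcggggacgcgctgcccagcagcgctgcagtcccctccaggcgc
The letters matched at 6 places in the Mobp promoter, at 1 in the Mag promoter and at 0 in that of Cldn11. In all, 28.6% of 32851 promoters of this length held at least 1 match. The E-box letters CAGCTG and CATCTG, searched on both strands, were in none of the 3 and in 30.6% of all promoters. A match here describes letters only.

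Relative to the counts of shared MSN markers, those of the members were highest on average in sorted nuclei. The summed counts of the 9 members were set against the summed counts of 8 markers shared by D1- and D2-MSNs (Ppp1r1b, Rgs9 and Pde10a among them), as a percentage within each library. In nuclear D1 libraries this ratio was 16.9% ± 6.08 (n = 6), with a lowest value of 5.34, a median of 18.8 and a highest of 22.4%. The 5 nuclear D2 libraries gave 12.8, 18.0, 18.2, 24.4 and 27.3%. In whole cell D1 libraries the ratio was 6.65% ± 3.57 (n = 8), from 2.94 to 13.9%, and in whole cell D2 libraries 3.69% ± 1.77 (n = 6), from 1.43 to 6.34%. The nuclear and whole cell ranges overlapped. Without nuclear D1 library 2, the lowest nuclear value was 12.8%, and the only whole cell library above that was D1 library 8, at 13.9%. RiboTag ratios were low and even. They were 3.80% ± 0.218 (n = 6) in male D1, 3.39% ± 0.453 (n = 6) in male D2, 4.28% ± 0.563 (n = 5) in female D1 and 3.19% ± 0.172 (n = 5) in female D2 libraries. Every RiboTag library lay below every nuclear library. The summed MSN markers differed too, at 1865 ± 685 scaled CPM (n = 6) in nuclear D1 and 638 ± 218 (n = 5) in nuclear D2 libraries. They ran from 359 to 3118 in whole cell and from 1991 to 3009 in RiboTag libraries. The summed members were 292 ± 118 scaled CPM in nuclear D1 and 124 ± 43.4 in nuclear D2. Nuclear D2 libraries 1 and 5 had 77.6 and 78.4, within the male RiboTag range of 76.1 to 104 scaled CPM. Counts covered whole gene bodies, introns included, so a ratio in nuclei and one on ribosomes do not count the same molecules.

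**Figure D1:**
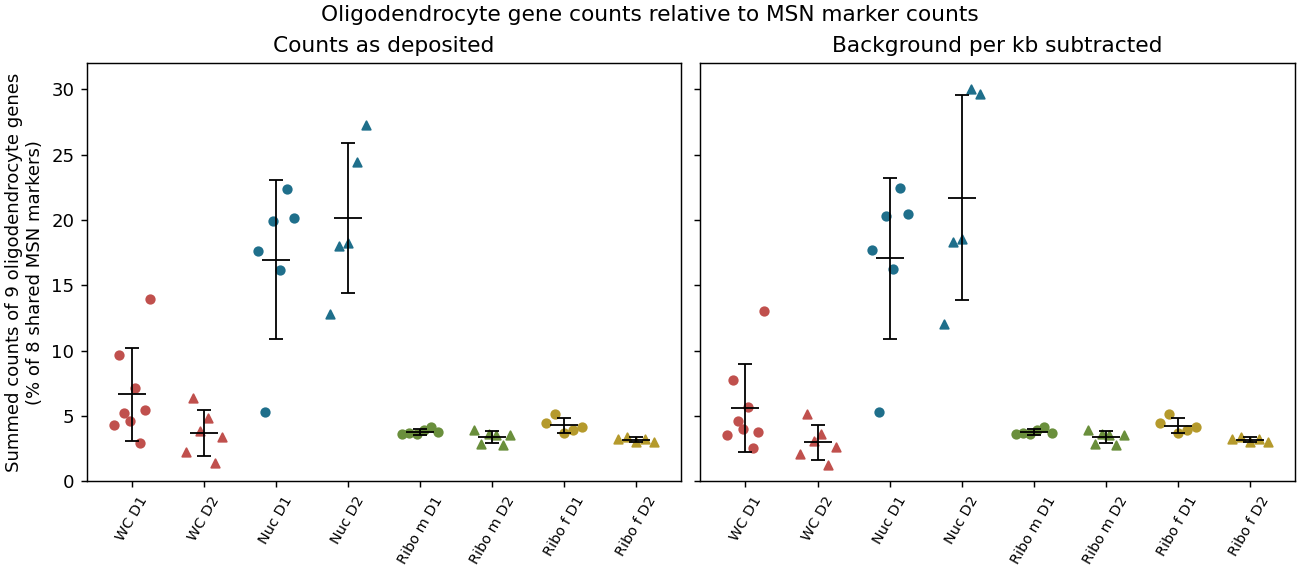
The ratio of summed member counts to summed shared MSN marker counts, in percent, for each library (points, circles D1 and triangles D2) with mean and SD (bars), from the deposited counts (left) and after background subtraction (right). Nuclear libraries run from 5.34 to 27.3% on the left, while whole cell (WC) libraries reach 13.9% and RiboTag (Ribo, m male and f female) libraries 5.13%.

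Mbp supplied the largest part of the nuclear and whole cell signal, with 49.5% of the members' summed count in nuclear D1 libraries and 47.9% in whole cell D1 libraries. Its level was 84.8, 123 and 225 scaled CPM (lowest, median, highest) in nuclear D1 libraries. The 5 nuclear D2 libraries had 42.7, 72.7, 87.9, 41.3 and 93.3 scaled CPM of Mbp. In the 14 whole cell libraries Mbp ran from 17.9 to 34.3 with a median of 23.7, and in the 12 male RiboTag libraries from 21.8 to 36.9 with a median of 28.0 scaled CPM. All 11 nuclear libraries were therefore above all whole cell and all male RiboTag libraries, which overlapped each other, while the highest female RiboTag library reached 47.8 scaled CPM. Mobp ran from 15.9 to 133 with a median of 41.4 scaled CPM in nuclear libraries and from 1.5 to 8.02 with a median of 4.99 in whole cell libraries. In male RiboTag libraries Mobp ran from 10.4 to 22 with a median of 12.0 scaled CPM. Whole cell libraries were thus all below RiboTag libraries for Mobp, and male RiboTag libraries overlapped only the lowest nuclear ones. Of its 31778 bases of span, Mobp shares 2447 with Gm38642 on the same strand, so that some fragments count for either gene.

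**Figure D2:**
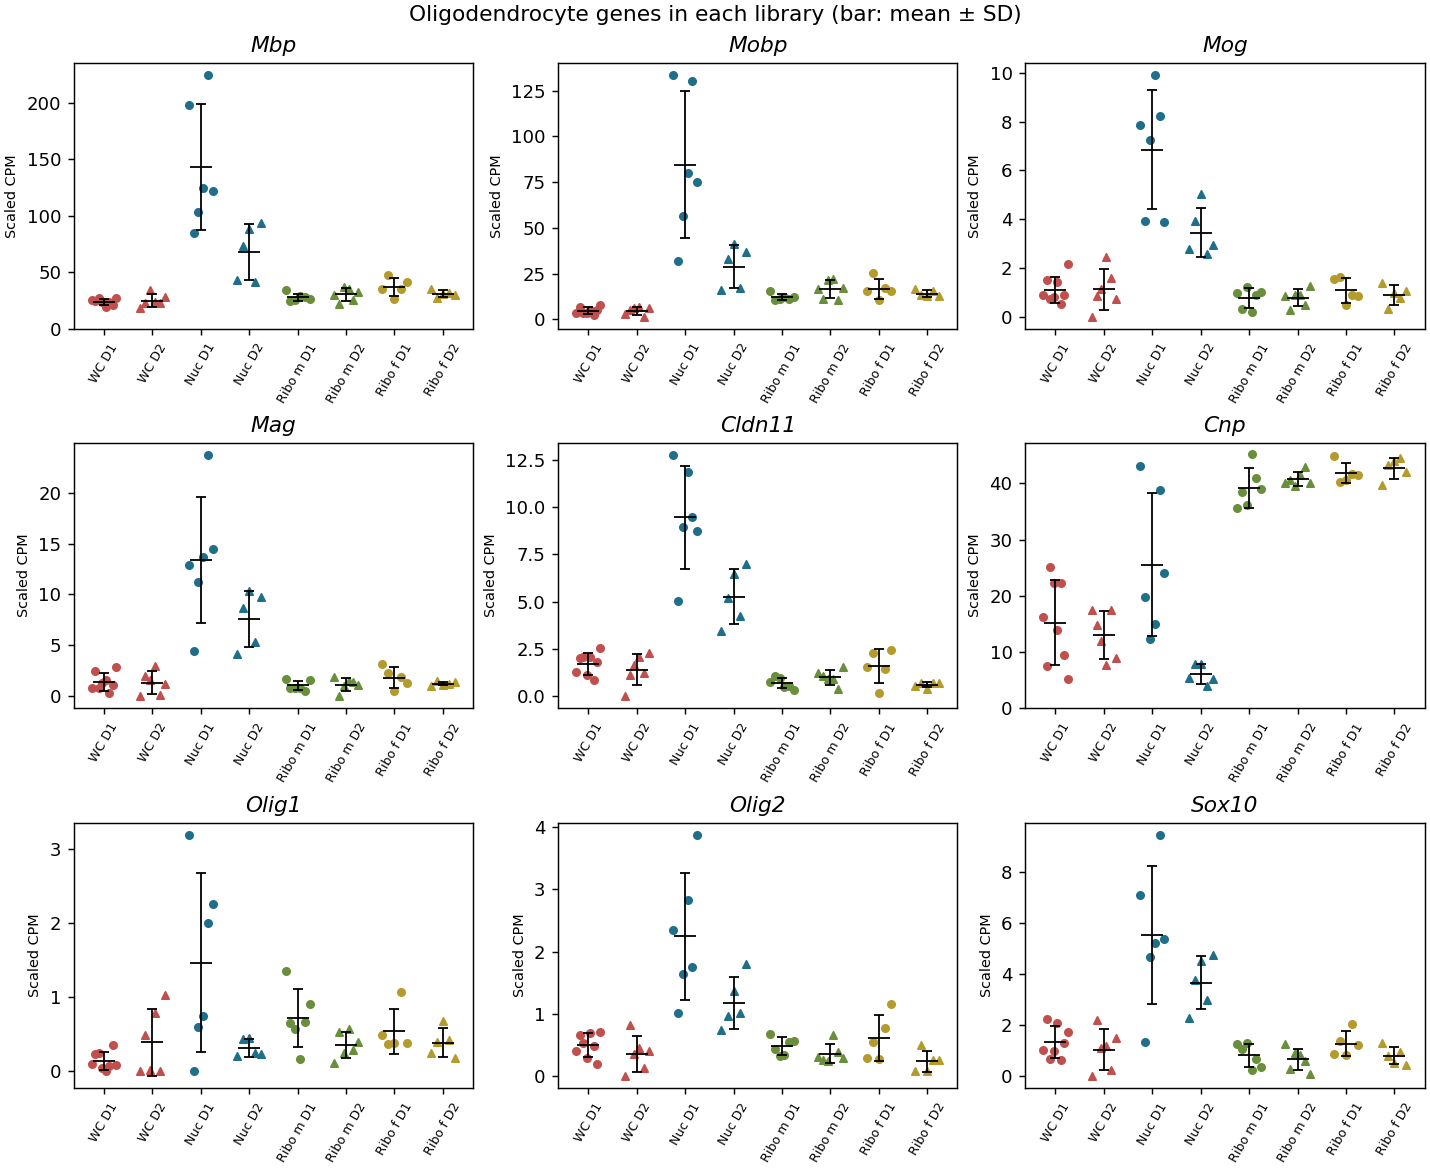
Scaled CPM of the 9 members in every library, by group (WC whole cell, Nuc nuclear, Ribo RiboTag, m male, f female, circles D1, triangles D2, bars mean and SD). Mbp, Mobp, Mag, Mog and Cldn11 are higher in nuclear libraries than in whole cell libraries without overlap, while the mean of Cnp is highest in RiboTag libraries.

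The rarer myelin genes were also highest in nuclei. Mag had 4.15 to 23.7 scaled CPM in nuclear libraries, with a median of 10.3, against 0 to 2.97 with a median of 1.25 in whole cell and 0 to 1.88 with a median of 1.06 in male RiboTag libraries. Cldn11 had medians of 7.00, 1.74 and 0.897 scaled CPM in the same order, and Mog 3.94, 0.869 and 0.885. For these 3 genes nuclear libraries overlapped neither of the other methods. Over all members, whole cell libraries lay wholly below nuclear ones for 5 of 9 and male RiboTag libraries for 6 of 9, and for 4 and 3 of 9 once background was subtracted. Compared per kilobase of gene span, the mean nuclear level was highest for Mobp, at 1.86 scaled FPKM (SD 1.30, n = 11), followed by Cnp at 0.992 and Mbp at 0.983. It was between 0.419 (Mog) and 0.687 (Mag) scaled FPKM for the other 6 members, which overlapped in their spread. In male RiboTag libraries, per kilobase of summed exons, Cnp led at 11.0 scaled FPKM, before Mbp at 3.42 and Mobp at 2.08, and the other 6 members were at 0.166 to 0.457.

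Whole cell libraries held little more on several of these genes than on genes not expected in brain. As a gauge of background, the count per kilobase was taken on 1427 odorant and vomeronasal receptor genes, and multiplied by each member's span. In whole cell libraries Mog reached a median of 1.37 times this expected background count, and 12 of 14 libraries were under 2 times it. Mag had a median of 1.36 times (11 of 14 libraries under 2), Cldn11 1.80 (10 of 14) and Sox10 1.82 (9 of 14). Olig1 had a median of 0.90 times, with 9 of 14 libraries under 2 times and 8 of 14 under the background itself. Mbp stayed between 2.38 and 7.12 times the background and Cnp between 3.45 and 42.0 times in all 14 whole cell libraries. In nuclear libraries the lowest ratio of count to background was 4.10 for Mbp, 5.49 for Mobp and 2.24 for Mog, and the medians of these 3 genes were 15.1, 28.8 and 6.05. Unscaled for depth, background was uneven there, at 0.0493 to 7.48 counts per kilobase in nuclear D1 and 0.978 to 15.7 in nuclear D2 libraries. It amounted to 2.63% ± 2.45 (n = 6) of the members' summed count in nuclear D1, 16.5% ± 8.19 (n = 5) in nuclear D2 and 28.2% ± 11.1 (n = 8) in whole cell D1 libraries. RiboTag libraries had almost none, at 0.181 to 0.287% of the members' count. There a handful of counts already stood far above background, such as 2 to 15 counts of Mog in male libraries at 15.5 to 116 times the expected count. With the background subtracted, the ratio to MSN markers was 17.1% ± 6.16 (n = 6) in nuclear D1, 21.7% ± 7.86 (n = 5) in nuclear D2, 5.61% ± 3.38 (n = 8) in whole cell D1 and 2.98% ± 1.36 (n = 6) in whole cell D2 libraries.

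**Figure D3:**
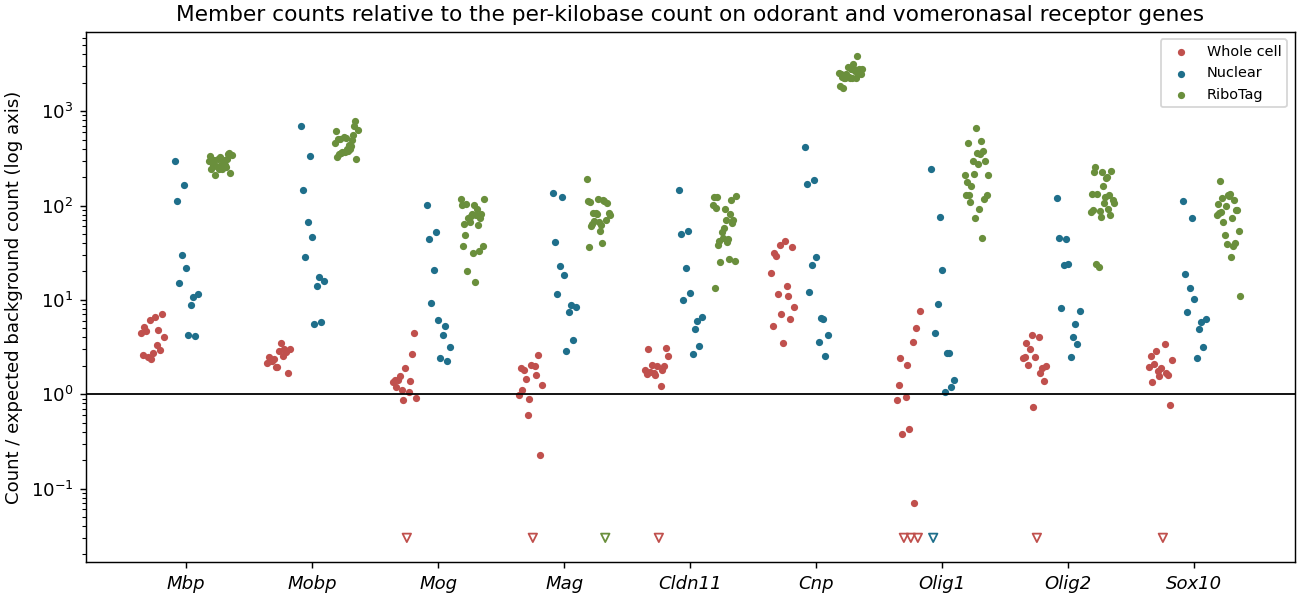
Each member's count divided by the count expected from background, on a log axis, for all libraries of a method. Open triangles at the bottom are libraries with 0 counts, and the line marks a count equal to background. Whole cell values of Mog and Mag lie around the line, and the nuclear and RiboTag values lie above it apart from 1 nuclear library at 0 for Olig1 and 1 RiboTag library at 0 for Mag.

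Cnp differed in its pattern from the other 8 members. Its mean was highest in RiboTag libraries, at 39.2 ± 3.50 scaled CPM (n = 6) in male D1 and 40.8 ± 1.22 (n = 6) in male D2, against 15.3 ± 7.51 (n = 8) in whole cell D1 and 13.1 ± 4.24 (n = 6) in whole cell D2. Nuclear D1 libraries had 25.5 ± 12.7 scaled CPM (n = 6) of Cnp, and the 5 nuclear D2 libraries 5.41, 7.90, 7.95, 3.89 and 5.27. It made up 47.1% of the members' count in RiboTag male D1 but 8.81% in nuclear D1 libraries. Cnp (chr11:100574904-100591729, + strand) shares 8912 bases, exons included, with Dnajc7, a co-chaperone gene on the other strand (chr11:100582818-100620168), and the counting ignored strand, so that reads of the overlap entered both genes and cannot be told apart. The Cnp count was 84.0% ± 1.06 (n = 6) of the Dnajc7 count in RiboTag male D1 and 84.0% ± 2.00 (n = 6) in male D2 libraries. It was 86.3% ± 26.4 (n = 6) in nuclear D1, 50.3% ± 4.77 (n = 5) in nuclear D2 and 59.6% ± 8.14 (n = 8) in whole cell D1 libraries. After group means were removed, the log2 level of Cnp correlated with that of Dnajc7 at r = 0.93 over 47 libraries, and with the other members at -0.29 to 0.27. The other 8 members correlated with one another at 0.28 to 0.75, with a median of 0.49 over 28 pairs. These correlations share libraries, depth and scaling and are a description. Without Cnp, the ratio of the remaining members to MSN markers was 2.00% in RiboTag male D1, 1.89% in male D2, 15.5% in nuclear D1 and 19.2% in nuclear D2 libraries, a wider gap between the methods in relative terms than with it.

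**Figure D4:**
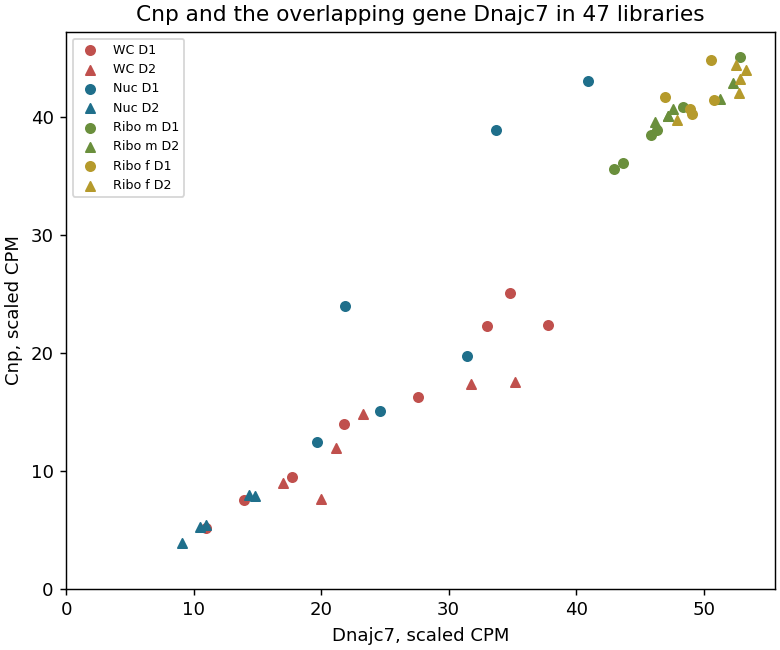
Scaled CPM of Cnp against scaled CPM of Dnajc7 in the 47 libraries, by group (WC whole cell, Nuc nuclear, Ribo RiboTag). RiboTag libraries form a tight cluster with Cnp at 79.8 to 88.8% of Dnajc7, and 3 nuclear D1 libraries lie above 100%.

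The lineage transcription factors were detected at low counts. Sox10 had 1.34 to 9.48 scaled CPM with a median of 4.68 in nuclear libraries, 0 to 2.23 with a median of 1.14 in whole cell and 0.0972 to 1.29 with a median of 0.738 in male RiboTag libraries. Olig2 had medians of 1.65, 0.422 and 0.362 scaled CPM in that order. Nuclear libraries lay above all male RiboTag libraries for Sox10 and Olig2, and overlapped whole cell and female RiboTag libraries, which reached 2.04 scaled CPM of Sox10 and 1.16 of Olig2. Olig1, a gene of a single exon of 2162 bases, was the least certain member. Its counts ran from 0 to 163 in nuclear, from 0 to 39 in whole cell and from 1 to 14 in male RiboTag libraries, and the scaled CPM ranges of the 3 methods overlapped. In nuclear D2 libraries 3 of 5 had Olig1 counts under 2 times the background. Its last 157 bases overlap the lincRNA Gm15966, which had no count in any RiboTag library.

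The methods were compared in 1 fit over the whole cell, nuclear and male RiboTag libraries, averaging D1 and D2, with edgeR's quasi-likelihood test and Benjamini-Hochberg adjustment over 30375 genes. A gene was called at an adjusted p of at most 0.05 and an absolute log2 fold change above 0.38. Between whole cell and nuclear libraries 7 of 9 members were called lower in whole cells, where 6.68% of all genes were, and 0 were called higher, where 12.3% of all genes were. In either direction 19% of genes were called. Mobp differed most, with a log2 fold change of -3.39 (SE 0.24, adjusted p = 9.28e-14, edgeR), a fold of 10.5. Mag fell by 2.87 (SE 0.40), Cldn11 by 2.17 (SE 0.30), Mog by 2.11 (SE 0.34), Mbp by 1.99 (SE 0.15), Olig2 by 1.93 (SE 0.35) and Sox10 by 1.92 (SE 0.38) on the log2 scale. Cnp had a log2 fold change of 0.21 (SE 0.21) and Olig1 of -1.54 (SE 0.60, edgeR adjusted p = 0.0664), which did not pass. The members' median was -1.99 beside 0.13 over all genes tested, and 0.27 over the 8 shared MSN markers, of which 2 were called higher, Ppp1r1b (1.87, SE 0.31) among them. The 7 calls stood when whole cell D2 library 1, whole cell D1 library 8 or nuclear D1 library 2 was left out. In library totals without TMM the same 7 genes kept their sign and call, with Mobp at -2.83, and Cnp was called higher at 0.67. After background subtraction the differences were larger, at -3.16 for Mog, -3.86 for Mag and -2.53 for Sox10. The call on Olig1 changed without nuclear D1 library 2, the library in which it was at 0 (-1.67, edgeR adjusted p = 0.0339).

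**Figure D5:**
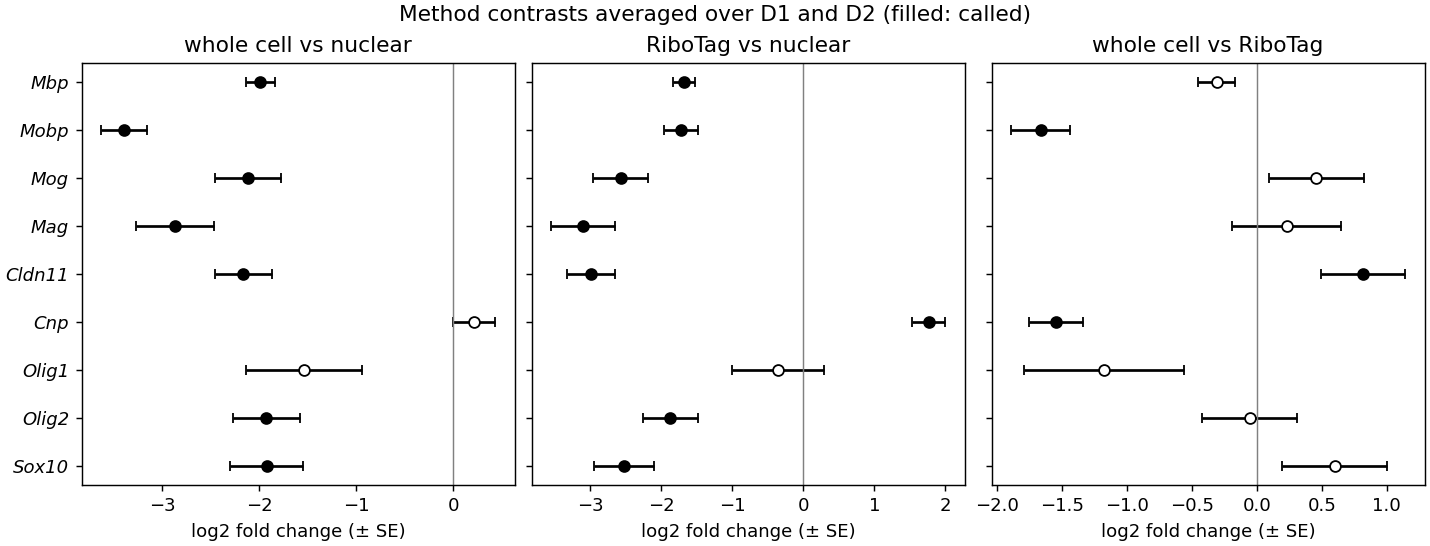
Log2 fold change of each member between methods, averaged over D1 and D2, with its standard error (bars). Filled points passed the call. In the left panel 7 members lie left of 0 and are filled, and in the middle panel 7 are lower and Cnp higher in RiboTag.

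Between RiboTag and nuclear libraries 7 members were called lower in RiboTag, as 63.9% of all genes were, and Cnp was called higher, as 25.3% of genes were, and 89.3% of genes were called in all. Mag (-3.10, SE 0.45), Cldn11 (-2.98, SE 0.34), Mog (-2.57, SE 0.38) and Sox10 (-2.52, SE 0.43) were lowest, while Mbp (-1.68, SE 0.16), Mobp (-1.72, SE 0.24) and Olig2 (-1.87, SE 0.39) differed less. The median over all genes was itself -2.26, and 4 of 9 members lay below it. After background subtraction 7 of 9 did, with a median of -2.24 for the members and -2.10 for all genes. The shared MSN markers had a median of 1.26 without that subtraction, and 6 of 8 were called higher. Cnp had a log2 fold change of 1.76 (SE 0.23, edgeR adjusted p = 7.90e-09), and Dnajc7 one of 1.45 (SE 0.18). In library totals the shift of all genes was -5.31 and Cnp turned to -1.20, so that its direction rests on the scaling. Between whole cell and RiboTag libraries 3 of 9 members were called. The median over all genes was 1.97, all 9 members lay below it, and the members' median was -0.06. Mobp (-1.67, SE 0.22) and Cnp (-1.55, SE 0.21) were called lower and Cldn11 (0.82, SE 0.32) higher in whole cells, where 23.3% of all genes were called lower, 63% higher and 86.3% in all. The call on Cldn11 was lost after background subtraction (0.40, edgeR adjusted p = 0.318) and with no filter on low values (0.53, edgeR adjusted p = 0.137). Sox10 was called as well without whole cell D2 library 1 (0.73, edgeR adjusted p = 0.0443). In library totals all 9 were higher in whole cells, with a shift of all genes of 5.35.

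D1- and D2-MSN libraries were compared within each method, on the genes that passed the study's filters on low values. The call also required a mean above the 25th percentile and, for nuclei, a standard error below the 75th. The filters left few members in whole cell and RiboTag libraries. In whole cell libraries 3 of 9 were tested and 0 called, where 0.629% of 17171 genes were called (by DESeq2 also 0, and 0 of the 3 at an unadjusted p under 0.05). Mbp had a log2 fold change (D2 over D1) of -0.04 (SE 0.21) and Cnp of -0.29 (SE 0.21). In nuclear libraries all 9 were tested and 1 was called, where 12.3% of 9603 genes were, 9.04% in the direction of a lower D2 level. The called member was Cnp, lower in D2 libraries at -0.98 (SE 0.22, edgeR adjusted p = 0.0143), and its overlapping neighbour Dnajc7 had -0.21 (SE 0.12). The call on Cnp was lost without nuclear D2 library 5 (-0.88, edgeR adjusted p = 0.0547). The other 8 ranged from -1.14 (Olig1, SE 0.66) to 0.40 (Sox10, SE 0.33), with Mbp at -0.08 (SE 0.21). Beside them, all 8 shared MSN markers were negative, with a median of -0.62 and 3 called lower. Without the FPKM filter 5 of 9 members and 7205 of 31033 genes were called, and the median over all genes was 0.26. With no filter on low values 6 of 9 members and 7294 of 51744 genes were called, and that median was 0.77. The direction for Mag, Sox10 and Cldn11 turned with these filters, and the ratio to MSN markers overlapped between nuclear D1 and D2 libraries. On the scaled CPM set across all 47 libraries Mbp was 143 ± 55.5 (n = 6) in nuclear D1 and 67.6 ± 24.6 (n = 5) in nuclear D2, so that this scale and the fit within nuclei differ. Without nuclear D1 library 2 a second member, Mobp, was called (-0.70, edgeR adjusted p = 0.0262).

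In RiboTag libraries edgeR called no member in either sex with the study's filters and all libraries in. With no filter on low values it called 1 member in each sex. There 638 of 30562 genes were called in male and 428 of 30894 in female libraries. With the study's filters 2 members were tested in male libraries, where 2.46% of 6819 genes were called. They were Mobp at 0.46 (SE 0.18, edgeR adjusted p = 0.149) and Cnp at 0.05 (SE 0.06). In female libraries Mbp had -0.31 (SE 0.15), Mobp -0.29 (SE 0.22) and Cnp -0.02 (SE 0.06), where 1.56% of 7095 genes were called. Mobp in male libraries stood at an unadjusted p of 0.0234, and the 3 female members at unadjusted p-values of 0.0609 or more. The 6 male D1 values of Mobp ran from 10.4 to 15.3 and the 6 male D2 values from 10.4 to 22 scaled CPM, overlapping at the low end. Leaving out male D2 library 5 brought Mobp to a call (0.57, edgeR adjusted p = 0.00368), DESeq2 called it with all libraries (0.45, DESeq2 adjusted p = 0.0335), and leaving out female D1 library 4 brought Mbp to one (-0.42, edgeR adjusted p = 0.00830). Between female and male libraries 3 members were tested and 0 called by edgeR and by DESeq2, as 0% of 7209 genes were by edgeR, with log2 fold changes of 0.19 (Mbp, SE 0.09), 0.09 (Mobp, SE 0.14) and 0.05 (Cnp, SE 0.04) and 0 of the 3 at an unadjusted p under 0.05.

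Whether the D2 to D1 difference itself changed between methods was tested by an interaction term. Relative to nuclear libraries, it was shifted towards D2 in whole cell libraries for 4 of 9 members, Mbp (1.14, SE 0.30), Mobp (1.60, SE 0.45), Cnp (1.82, SE 0.43) and Olig1 (3.67, SE 1.23), where 15.4% of all genes were called in that direction and 21.4% in all. In 8 of 14 whole cell libraries, Olig1 counts were under the background. The term for Olig1 missed the call without nuclear D2 library 1 or 5 (edgeR adjusted p = 0.0583 and 0.0605). In RiboTag relative to nuclear libraries it was shifted for Mbp (1.23, SE 0.31), Mobp (2.03, SE 0.47) and Cnp (2.14, SE 0.45), where 12.6% of genes were and 14.2% in all. All 8 shared MSN markers were called in the same direction, with medians of 2.40 and 1.91. These comparisons share the nuclear libraries, and in library totals 0 members were called in either. With background subtracted, Mbp and Mobp missed the call in both. Between whole cell and RiboTag libraries 0 of 9 interactions were called by edgeR and 0 of 9 had an unadjusted p under 0.05, where 0.112% of genes were called.

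Other oligodendrocyte genes differed with the members between whole cell and nuclear libraries. In that contrast 6.68% of all genes were called lower in whole cells, 12.3% higher and 19% in all. Of 9 further myelin structure genes, 8 were called lower in whole cells and 0 higher, with a median log2 fold change of -2.01. Mal, a proteolipid of myelin membranes, had -2.32 (SE 0.22). Of 8 genes of myelin lipids and metabolism, 7 were called lower, among them Enpp2 at -1.87 (SE 0.18) and Trf at -1.92 (SE 0.21). Of 5 other lineage transcription factors 2 were, Myrf at -1.29 (SE 0.25) and Nkx6-2 at -1.65 (SE 0.44), while Sox8 had 0.28 (SE 0.21). Between RiboTag and nuclear libraries Sox8 was called higher in RiboTag at 2.27 (SE 0.23), as 25.3% of all genes were. Of 7 precursor genes 3 were called lower in whole cells than in nuclei, Bcas1 at -1.75 (SE 0.18) and Gpr17 at -1.93 (SE 0.33) among them, and Pdgfra at -0.94 (SE 0.25). Astrocyte markers were lower as well, with 4 of 6 called and a median of -1.82, and microglial markers with 4 of 7 called and a median of -0.74, against 0 of 5 endothelial markers. Their part in the members' differences was not tested.

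The genes most like the members were ranked by Pearson correlation, over 47 libraries, between each gene's log2 CPM and the mean of the 9 members, both after removal of group means, among 28072 other genes. Csrp1 led at 0.87, followed by 2900052N01Rik (0.84), Aqp4 (0.84), Zcchc24 (0.83) and Pla2g16 (0.82), and Sema6a (0.82), Sorbs3 (0.81), Rassf2 (0.81), Unc5b (0.80) and Zfp579 (0.80) completed the first 10. Of the members themselves, Sox10 (0.86) and Mag (0.84) followed the mean most closely and Cnp (-0.17) did not. Each member is part of that mean, so these values cannot be set beside those of the other genes.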

How the data were processed

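RNAseq libraries of D1- and D2-MSNs were made by the authors with a stranded, ribosome-depleting kit, aligned to GRCm38 with HISAT2 2.0.5 and counted with featureCounts over gene bodies, without regard to strand, for every gene a fragment overlapped. The authors deposited these raw counts per gene, without normalization. The 49 columns became 47 libraries, since a further lane of whole cell D2 number 3 and a column named as a repeat of whole cell D1 number 1 were each summed with their own number. The submitters' titles give 8 whole cell samples of each cell type, the series' design text 9 D1 and 7 D2, so the summed columns may be separate samples. The further lane had a Spearman correlation of 0.993 with its own number and 0.781 to 0.886 with the other D2 columns. For the repeat column these were 0.975 and 0.908 to 0.953 with the other D1 columns. With each column a library, 529 instead of 108 whole cell genes were called, and 0 members in both.

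The members, gene lists and tests were chosen with earlier results of these data known. Named genes were the 9 members, up to 4 genes per other list and comparison by smallest p, the 10 most alike genes and genes that overlap a member. Counts were tested with edgeR 4.0.16 (quasi-likelihood, TMM, robust) in R 4.3.3, with DESeq2 1.42.0 as an alternative. Genes needed more than 1 FPM in at least 2 libraries. The D2 to D1 comparisons also needed FPKM values on the gene span (1 or more in 1 library or more, none above 50000), and RiboTag and its sex comparison 0.1 or more in 2 libraries or more. A prior count of 1 was used for log2 CPM. Standard errors came from each log2 fold change and its F value. Floors cover counting error only. Coordinates are GENCODE M21 on GRCm38. Figures used matplotlib 3.10.9 in Python 3.11.15. The D2 to D1 tests were checked on simulated counts with 200 genes changed by a log2 of 1.5. They recovered 57.5% of these in the whole cell, 69.5% in the nuclear and 100% in both RiboTag settings. Of the calls, 5.74, 0.714, 2.44 (male) and 2.91% (female) were false in that order. Only the adjusted p and the fold change entered the call there. Values of some genes of the other lists are not reported here.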

Additional observations from a re-analysis of the deposited data

Results flagged for a closer look

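A set of 3 libraries stood apart from their group in a member's level by Dixon's criterion. Mobp was 15.3 scaled CPM in RiboTag male D1 library 1, Olig1 was 1.07 scaled CPM (11 counts) in RiboTag female D1 library 5, and Olig2 was 0.655 scaled CPM (8 counts) in RiboTag male D2 library 4. Chance gives about 1 in 20 groups, and 72 groups of libraries and members were examined.

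The difference between D2 and D1 libraries was itself different between methods in 7 interaction terms. For whole cell against nuclear libraries the log2 shift was 1.14 for Mbp, 1.60 for Mobp, 1.82 for Cnp and 3.67 for Olig1. For RiboTag against nuclear libraries it was 1.23 for Mbp, 2.03 for Mobp and 2.14 for Cnp. The same shift was called for all 8 shared MSN markers in each of these contrasts, with medians of 2.40 and 1.91, and for 15.4% and 12.6% of all genes. The call on Olig1 did not hold in every fit with a nuclear D2 library left out. Its counts were under the background in 8 of 14 whole cell libraries. In library totals 0 members were called in either contrast, and Mbp stood at -0.57 and -0.18. With background subtracted, Mbp and Mobp missed the call in both.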

How the results depend on the processing

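The whole cell to nuclear differences of the 7 called members kept their direction and call under every alternative run. Leaving out 1 library lost 3 of 211 calls on members. In the fit across methods, only the nuclear D2 libraries, whole cell D2 library 1, whole cell D1 library 8 and nuclear D1 library 2 were left out in turn. No RiboTag library was left out of that fit. Few same-numbered D1 and D2 libraries deviated together at a correlation over 0.1. They were 1 of 6 whole cell, 1 of 4 nuclear, 1 of 6 RiboTag male and 0 of 4 female pairs. The highest correlation was 0.217, in nuclei, and so few pairs cannot settle whether the library numbers pair the samples. With the number as a replicate block, 0 nuclear genes and 0 nuclear members and 1 RiboTag male member were called, and Mog (0.28) and Olig2 (0.46) changed sign in nuclei. The number of whole cell genes called was 678 by DESeq2, 190 with its size factors, 32 without the FPKM filter, 30 with no filter on low values, 32 with summed exons and 529 with each column a library. Nuclear calls were 5 members and 7205 of 31033 genes without the FPKM filter, and 6 and 7294 of 51744 with no filter. With summed exons they were 5 members and 7248 of 27986 genes. RiboTag male calls were 1 member by DESeq2, and 1 member and 638 of 30562 genes with no filter. They were 321 genes without the FPKM filter, 318 with summed exons and 667 by adjusted p alone. RiboTag female calls were 1 member and 428 of 30894 genes with no filter, and 178, 177 and 322 genes in the other 3 settings. With no filter, 9819 genes differed between whole cell and nuclear libraries. In library totals, 0 members were called in either nuclear interaction, with Mbp at -0.57 and Mobp at -0.20 for whole cells and Mbp at -0.18 for RiboTag, and 9 were called between whole cell and RiboTag libraries, with Mbp at 3.19, Mobp at 1.89, Cnp at 1.87, Olig1 at 2.22 and Olig2 at 3.35. In totals, Cnp was -1.20 between RiboTag and nuclear libraries. The whole cell interaction held 1 member with DESeq2's size factors and 2 with background subtracted, and the RiboTag interaction 1 with background subtracted. Whole cell D2 to D1 gave Mbp 0.0313 by DESeq2 and 0.0318 with its size factors, 0.0788 without the FPKM filter, 0.0755 with no filter, 0.0747 with summed exons and 0.0610 with each column apart. Nuclear D2 to D1 gave Olig2 0.00709 by DESeq2, 0.00900 with its size factors and 0.10 after background subtraction, which gave Mbp 0.17. There Mag was -0.88, -0.86 and -0.84, Sox10 -0.67, -0.65 and -0.63 and Cldn11 -0.93, -0.91 and -0.88 without the FPKM filter, with no filter and with summed exons. Female Cnp was 0.0155 with no filter. Between whole cell and RiboTag libraries Olig2 was 0.21 with size factors and 0.20 by DESeq2, Mag -0.0712 with no filter, and Mog -0.29 and Mag -0.34 after subtraction. Leaving out 1 library gave 50 to 338 whole cell and 241 to 1567 nuclear genes. It gave 0 to 2 nuclear, 0 to 1 RiboTag male and 0 to 1 female members. Between the sexes, where only female libraries were left out in turn, it gave 0 to 4 genes. It moved nuclear Cldn11 between -0.0308 and 0.24, Mag -0.00894 and 0.33, Mbp -0.17 and 0.0746, Mog -0.16 and 0.16 and Olig2 -0.17 and 0.21, whole cell Mbp -0.0889 and 0.0628, female Cnp -0.0297 and 0.0128, Mobp between the sexes -0.00783 and 0.15, and Olig2 between whole cell and RiboTag libraries -0.0959 and 0.0688. Without Mbp the ratio to MSN markers was 8.68 and 9.15% in nuclear D1 and D2, 1.82% in whole cell D2, 2.54 and 2.28% in RiboTag male and 2.74 and 2.13% in female libraries. Without Cnp, an alternative chosen after seeing the data like those without whole cell D2 library 1, whole cell D1 library 8 or nuclear D1 library 2, it was 2.00 and 1.89% in RiboTag male and 2.52 and 1.70% in female libraries.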

Other observations

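Markers of other cells, set against the shared MSN markers in the same way, are given here as mean ± SD per group. The summed 6 astrocyte markers were 6.55% ± 2.18 (n = 6) of the MSN marker counts in nuclear D1, 9.61% ± 3.37 (n = 5) in nuclear D2, 4.42% ± 3.78 (n = 8) in whole cell D1, 2.18% ± 1.40 (n = 6) in whole cell D2 and 0.540% ± 0.0879 (n = 6) in RiboTag male D1 libraries. Precursor markers were 4.41% ± 2.24 (n = 6) in nuclear D1, 10.7% ± 4.22 (n = 5) in nuclear D2, 5.09% ± 4.43 (n = 8) in whole cell D1, 2.71% ± 1.86 (n = 6) in whole cell D2 and 0.345% ± 0.0768 (n = 6) in RiboTag male D1 libraries. Microglial markers were 7.32% ± 4.48 (n = 8) in whole cell D1 and 4.00% ± 1.74 (n = 6) in nuclear D1 libraries, with overlapping ranges. In D2 libraries the order was the other one, at 3.74% ± 1.85 (n = 6) in whole cell and 9.90% ± 4.41 (n = 5) in nuclear libraries. None of these values was corrected for background or tested.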
